A study of Mus musculus with 12 samples.

Results

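A set of 9 genes of uterine contraction signalling and cell coupling was followed over the mouse estrous cycle. They comprise the oxytocin receptor Oxtr, the angiotensin II receptor Agtr1a, the peptide ligand Edn1 with its receptors Ednra and Ednrb, and the connexins Gja1, Gja4, Gjb2 and Gjc1. The genes were taken by symbol. All 9 of 9 were found among the 35896 genes counted, and all 9 passed the filter on low counts that left 12052 genes for testing. The 12 samples were of whole uterus from wild-type female Swiss Webster mice, an outbred stock. The design text gives their age as 8 to 12 weeks. They fell into proestrus (replicates 1, 2 and 3), estrus (3, 4 and 5), metestrus (5, 6 and 7) and diestrus (3, 4 and 5), in the order of the cycle. No group was treated and none carried a transgene or a deleted gene. The labels used here did not say how a stage was assigned, nor whether a sample held the uterus of 1 animal or of several, so that p-values measure the spread between these samples.

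Oxytocin, angiotensin II and endothelin act on smooth muscle through receptors that couple to Gq proteins, release calcium from stores and so drive contraction. Connexins form gap junctions, channels that pass ions and small molecules between neighbouring cells. In the myometrium, the muscle layer of the uterus, Gja1 (the connexin Cx43) couples muscle cells electrically, and together with Oxtr it is known for its rise towards birth. Gjb2 (Cx26) is a connexin of epithelia, Gja4 (Cx37) one of the arterial endothelium, and Gjc1 (Cx45) one of smooth muscle and the cardiac conduction system. Ednra is the contractile endothelin receptor of smooth muscle. Ednrb acts in endothelium, where it releases nitric oxide and clears the peptide.

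The promoters of 4 members are shown because their transcripts had contrasting peaks over the cycle, with Oxtr, Gja1 and Gjb2 lowest in diestrus and Edn1 highest in estrus. RefSeq windows of 300 bases on GRCm38.p6, from 250 before to 50 after the start of transcription, were found for 7 of the 9 members. Only the bases that lie before the annotated gene are printed, 5′ to 3′ on the gene's strand. Capitals mark matches to any of the motifs searched on both strands. For estrogen receptors these were the full palindromic estrogen response element and its half-site GGTCA, which the full element also holds. For the AP-1 factors the motif was TGANTCA, and for CREB it was the CRE, searched as TGACGTCA. General promoter motifs were the TATA box, searched as TATAAA, and the GC box, searched as GGGCGG. The last was ACGTG, the core bound by hypoxia-inducible factors and other bHLH proteins. The printed Gja1 bases are chr10:56377050-56377299 (plus strand), those of Gjb2 chr14:57104703-57104952 (minus strand), those of Oxtr chr6:112489944-112490075 (minus strand) and those of Edn1 chr13:42301226-42301475 (plus strand).
Gja1: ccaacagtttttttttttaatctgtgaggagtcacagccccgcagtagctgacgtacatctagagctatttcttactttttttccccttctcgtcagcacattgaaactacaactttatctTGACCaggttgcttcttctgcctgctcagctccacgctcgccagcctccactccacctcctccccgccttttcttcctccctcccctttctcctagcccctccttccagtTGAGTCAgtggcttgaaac
Gjb2: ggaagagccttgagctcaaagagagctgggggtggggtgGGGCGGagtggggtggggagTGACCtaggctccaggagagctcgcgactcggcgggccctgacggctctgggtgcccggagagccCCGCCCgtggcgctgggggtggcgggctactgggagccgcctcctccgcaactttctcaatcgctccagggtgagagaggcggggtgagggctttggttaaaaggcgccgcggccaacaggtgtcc
Oxtr: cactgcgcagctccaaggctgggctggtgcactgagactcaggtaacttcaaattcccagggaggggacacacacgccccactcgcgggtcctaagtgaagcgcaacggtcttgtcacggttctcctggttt
Edn1: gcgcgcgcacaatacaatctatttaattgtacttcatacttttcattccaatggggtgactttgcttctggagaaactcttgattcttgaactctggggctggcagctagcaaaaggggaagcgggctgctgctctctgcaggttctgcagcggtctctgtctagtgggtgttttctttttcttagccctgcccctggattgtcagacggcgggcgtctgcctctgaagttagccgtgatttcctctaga
The Gja1 window held 1 AP-1 match, starting at -19 from the start of transcription, and 1 half-site at -129. AP-1 matches were found in 7.81% of the 32851 promoter windows in the table, and half-sites in 40.5%. The Gjb2 window held a half-site at -191 and GC boxes at -211 and -126, a motif found in 35.7% of windows. Oxtr held half-sites at -97 and 24, a GC box at -49 and a pair of overlapping ACGTG matches, on opposite strands, at -43 and -42, all within the annotated gene and not printed. ACGTG was found in 19.6% of windows. The Edn1 window held 1 ACGTG match, at 21, and none of the other motifs. None of the 7 windows held the full estrogen response element, which was present in 0.07% of all windows. These are matches of letters only, and their occupancy was not measured.

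The libraries held between 1652841 and 2200563 estimated counts, so that 3 counts, the limit that a count of 0 allows, stood for 1.37 to 1.83 CPM, the counts scaled to a common library size. Each member had between 239 (Agtr1a) and 1079 (Gja1) counts over the 12 samples, and the lowest single value was 4 counts, for Gja4 in estrus replicate 3. The tissue label was checked against marker genes, and all 10 of 10 smooth muscle, 10 of 10 epithelial, 9 of 9 stromal, 9 of 9 endothelial and 7 of 7 pericyte markers passed the filter. None of 6 markers of stratified squamous epithelium did, and of the other lists Epx (eosinophils), Th (nerve), Zp3 and Fshr (ovary) and Myh4 (skeletal muscle) had no counts in any library. The metestrus samples stood apart from each other. The summed level of 6 gland markers was 15, 23.4 and 862 CPM in metestrus replicates 5, 6 and 7, against 3.77 to 114 CPM in the 9 libraries of the other stages, and the stromal sum was 6806 CPM in metestrus replicate 5 against 8798 to 14589 CPM in the other 11 libraries. Of the gland markers only 2, Foxa2 and Cxcl15, passed the filter. They reached at most 7.26 and 14.5 CPM in metestrus, against 14.8 and 41.9 CPM in diestrus. Most of the 862 CPM thus came from gland markers that failed the filter. For the members, values without single metestrus samples are given where they change a call or move a value.

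**Figure D1:**
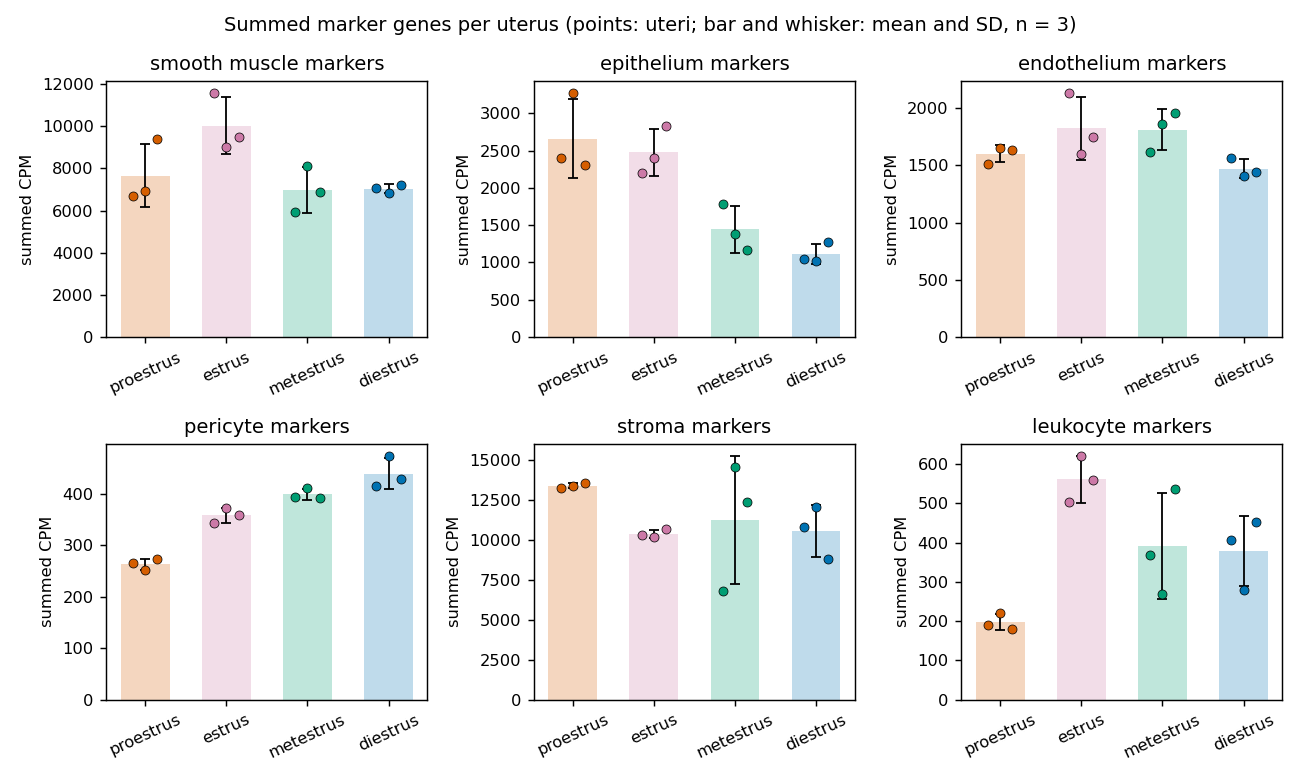
Summed CPM of the smooth muscle, epithelial, endothelial, pericyte, stromal and leukocyte marker lists in each sample (points), by stage, with mean (bar) and SD (whisker, n = 3). Epithelial sums lay between 2199 and 3268 CPM in proestrus and estrus and between 1015 and 1779 CPM in metestrus and diestrus. Most of the endothelial sum was Pecam1.

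Over the 4 stages, 6 of the 9 members differed by edgeR's quasi-likelihood F test, namely Oxtr, Edn1, Gjb2, Gjc1, Agtr1a and Gja1. Here and below a call is an adjusted p (Benjamini-Hochberg, over the 12052 genes) under 0.05, and 23.2% of all tested genes were called. The members did not peak together. Oxtr and Gjb2 had their highest mean in proestrus, Edn1 and Agtr1a in estrus, Gja1, Gjc1, Gja4 and Ednrb in metestrus, and Ednra in diestrus. The metestrus mean of Ednrb rests on 1 library, replicate 7, and the other 2, at 9.86 and 10.1 CPM, lay below every estrus and diestrus sample. The lowest mean was in diestrus for Oxtr, Gja1 and Gjb2, in estrus for Gja4 and in proestrus for the other 5.

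**Figure D2:**
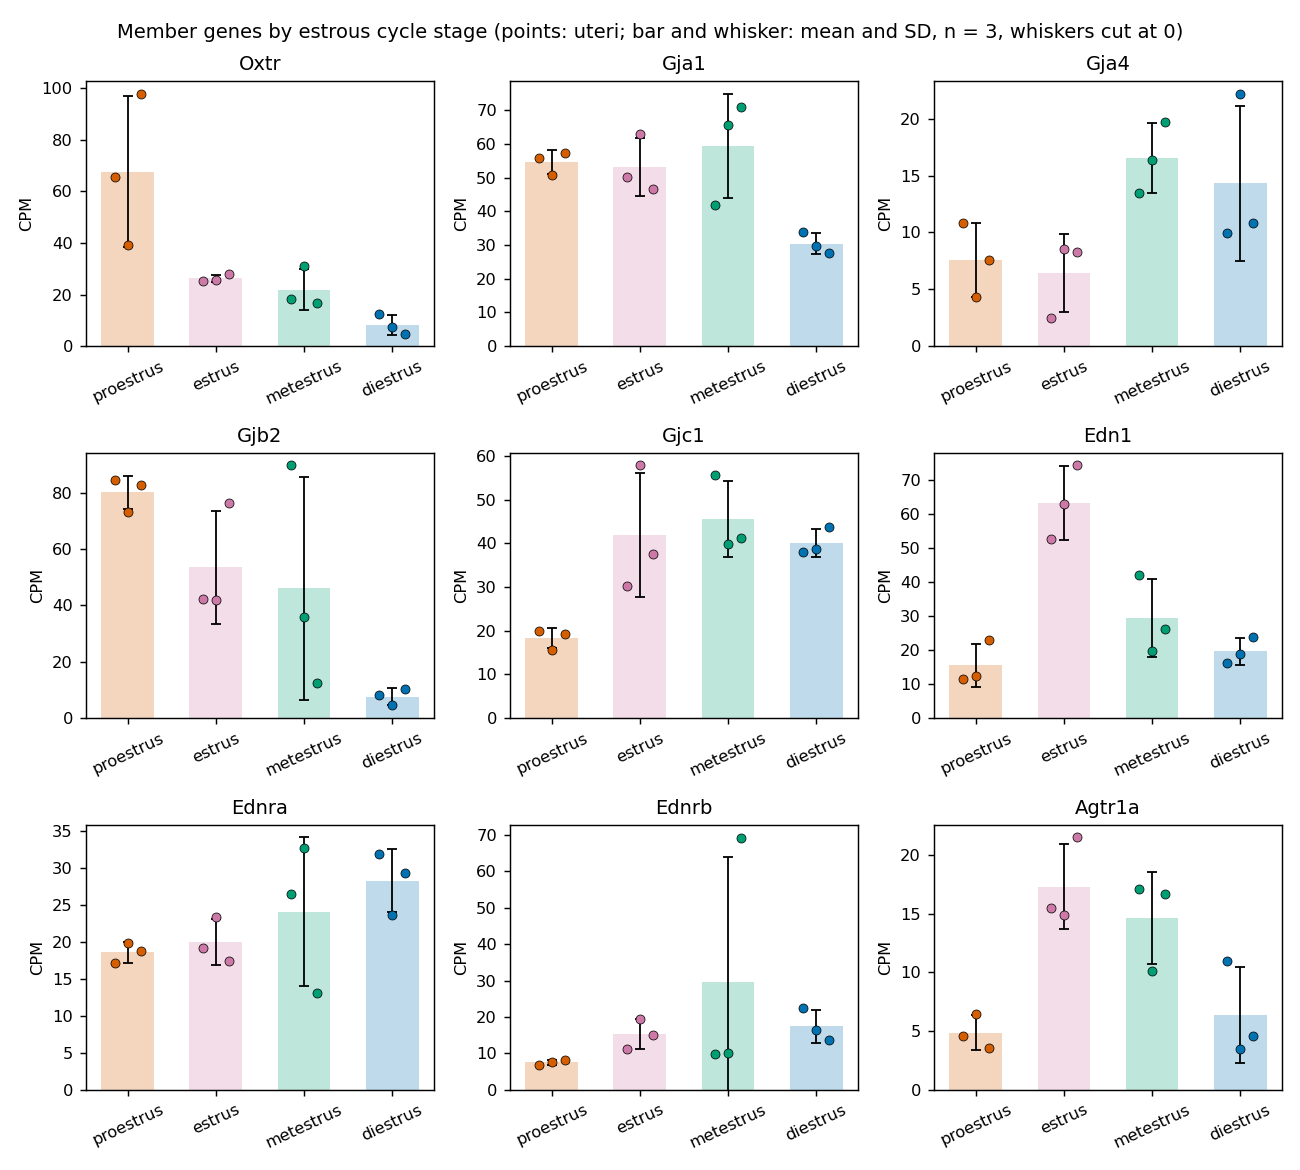
CPM of the 9 members in each of the 12 samples (points), by stage, with mean (bar) and SD (whisker, n = 3). Each panel has its own axis from 0. Oxtr ranged from 39.3 to 97.9 CPM in proestrus and from 4.53 to 12.5 CPM in diestrus, and Ednrb had 1 high value, 69.2 CPM, in metestrus replicate 7.

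Oxtr (ENSMUSG00000049112, chromosome 6, 112473683 to 112489943 on GRCm38), the receptor through which oxytocin contracts the uterus, was highest in proestrus and lowest in diestrus. It measured 65.6, 39.3 and 97.9 CPM in proestrus replicates 1, 2 and 3, 25.4, 25.7 and 27.9 CPM in estrus, 18.2, 30.9 and 16.7 CPM in metestrus and 12.5, 7.41 and 4.53 CPM in diestrus. Every proestrus sample lay above every sample of the other stages, every diestrus sample lay below all others, and estrus and metestrus overlapped. The stage means were 67.6 ± 29.4, 26.3 ± 1.39, 21.9 ± 7.83 and 8.14 ± 4.02 CPM (SD, n = 3 each), an 8.31-fold range, with an adjusted p of 0.000529 in the edgeR F test. From diestrus to proestrus Oxtr rose by 3.03 ± 0.38 on the log2 scale (SE; adjusted p = 0.000358 in edgeR, with 3 of 3 samples higher). From proestrus to estrus it changed by -1.36 ± 0.33 (adjusted p = 0.0134), and from estrus to metestrus by -0.28 ± 0.36 (adjusted p = 0.681), within the spread. Diestrus lay below estrus by -1.67 ± 0.40 (adjusted p = 0.00861) and metestrus below proestrus by -1.63 ± 0.34 (adjusted p = 0.0192). The step from metestrus to diestrus, -1.40 ± 0.41, was not called (adjusted p = 0.192), although the samples did not overlap, and it lay between -1.08 and -1.55 (adjusted p = 0.248 and 0.14) when single metestrus samples were left out. Leaving out proestrus replicate 3, the highest sample, ended the estrus call (log2 fold change -0.99, adjusted p = 0.0782) and the metestrus call against proestrus (-1.27, adjusted p = 0.0883). The latter was also lost without proestrus replicate 1 (adjusted p = 0.0524) or metestrus replicate 7 (0.0636), with counts scaled from TPM (0.0609) and in a fit to only those 2 stages (0.085).

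The summed smooth muscle markers were 6687 to 9387 CPM in proestrus and 9001 to 11570 CPM in estrus. In metestrus they were 5928 to 8125 CPM and in diestrus 6832 to 7233 CPM. The mean of that sum was highest in estrus, and proestrus and diestrus overlapped. Its markers differed in profile. Myh11 and Tagln had their highest means in estrus (2013 and 1977 CPM). Acta2 and Cnn1, not called in the F test, had theirs in proestrus (3219 and 805 CPM), as Oxtr did. Of the 10 smooth muscle markers, 5 rose and 0 fell from proestrus to estrus, where Oxtr fell, and 0 rose and 1 fell from diestrus to proestrus, where Oxtr rose. Over all genes 9.67% rose and 7.46% fell in the first step, and 4.61% and 3.91% in the second. The epithelial sum was 2305 to 3268 CPM in proestrus and 1015 to 1267 CPM in diestrus, and 8 of its 10 markers were higher and 2 lower in proestrus. The part of muscle or epithelial cells in the Oxtr difference was not tested. In whole tissue, fewer cells of a type and less RNA per cell cannot be told apart. Nearly all Oxtr counts (97.1%) were assigned to 1 of its annotated transcripts.

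Agtr1a (ENSMUSG00000049115, chromosome 13, 30336441 to 30382867), the main angiotensin II receptor of rodent smooth muscle, was highest in estrus and low in proestrus and diestrus. It measured 4.56, 6.47 and 3.55 CPM in proestrus, 15.5, 14.9 and 21.5 CPM in estrus, 17.1, 10.1 and 16.7 CPM in metestrus and 11, 3.46 and 4.53 CPM in diestrus. The estrus samples did not overlap with those of proestrus or diestrus, and they overlapped with metestrus. Means were 4.86 ± 1.48, 17.3 ± 3.68, 14.6 ± 3.94 and 6.32 ± 4.06 CPM (SD, n = 3 each; edgeR F test, adjusted p = 0.0107), resting on 7 to 47 counts per library. Agtr1a rose from proestrus to estrus by a log2 fold change of 1.83 ± 0.41 (SE; edgeR, adjusted p = 0.0095, higher in 3 of 3) and was lower in diestrus than in estrus by -1.44 ± 0.40 (adjusted p = 0.0183, lower in 3 of 3). The diestrus call was lost without estrus replicate 5 (adjusted p = 0.0853), diestrus replicate 4 (0.08) or diestrus replicate 5 (0.0715), and without diestrus replicate 3, the high sample, the difference was -2.11 (0.00468). Metestrus against proestrus, 1.59 ± 0.42, just missed the threshold (adjusted p = 0.0501), and it was called without metestrus replicate 6 (0.0239), diestrus replicate 3 (0.0322) or diestrus replicate 4 (0.0442), with other size factors (0.0483 and 0.0495), without a filter (0.0158) and by DESeq2 (0.0268). Agtr1a shares 3.26% of its sequence, in stretches of 31 bases, with its close paralogue Agtr1b, and its level is uncertain to that extent. Agtr1b itself had 2 counts over the 12 libraries and was not tested. The mean smooth muscle and leukocyte marker sums were also highest in estrus. From proestrus to estrus 5 of 10 smooth muscle markers and 5 of 7 tested leukocyte markers rose, against 9.67% of all genes. Leukocyte sums were 181 to 221 CPM and then 503 to 621 CPM. The part of these cells in the Agtr1a difference was not tested.

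Edn1 (ENSMUSG00000021367, chromosome 13, 42301476 to 42307990), which encodes the precursor of the constrictor peptide endothelin-1, peaked in estrus. It measured 11.4, 12.4 and 22.8 CPM in proestrus, 52.6, 62.9 and 74.2 CPM in estrus, 42.0, 19.6 and 26.2 CPM in metestrus and 16.0, 18.8 and 23.8 CPM in diestrus. All 3 estrus samples lay above the other 9 samples, and the other stages overlapped. An antisense gene overlaps its exons, and whether counting used strand is not given in the sources used here, so its level is uncertain to that extent, as is that of Ednra. Means were 15.5 ± 6.33, 63.2 ± 10.8, 29.3 ± 11.5 and 19.5 ± 3.96 CPM (SD, n = 3 each; edgeR F test, adjusted p = 0.000982). Edn1 rose from proestrus to estrus by a log2 fold change of 2.01 ± 0.30 (SE; edgeR, adjusted p = 0.00108), and diestrus lay below estrus by -1.70 ± 0.29 (adjusted p = 0.00121). These 2 calls held whichever single sample was left out. The fall from estrus to metestrus, -1.10 ± 0.28 (adjusted p = 0.0321, lower in 3 of 3), was lost without estrus replicate 4 (adjusted p = 0.0917), estrus replicate 5 (0.131), metestrus replicate 6 (0.112) or metestrus replicate 7 (0.0766), with counts scaled from TPM (0.0621) and in a fit to only those 2 stages (0.0774). Edn1 was called between metestrus and proestrus only without metestrus replicate 6 (adjusted p = 0.0396, against 0.113 with all samples) among the fits that left out 1 library.

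Leukocyte marker sums had their highest mean in estrus too, at 503 to 621 CPM against 181 to 221 CPM in proestrus. Between these stages 5 of the 7 tested leukocyte markers rose, against 9.67% of all genes. Endothelial sums, from cells known to make endothelin-1, were 1514 to 1655 CPM in proestrus and 1599 to 2131 CPM in estrus. Most of that sum was Pecam1, at means of 1424 and 1596 CPM, so it says little of the other endothelial markers. The median log2 fold change of the 9 markers between these stages was 0.46, against 0.016 over all genes. None of the 9 was called in that contrast or in the F test. Epithelial sums overlapped between proestrus and estrus. The part of these cells in the Edn1 difference was not tested.

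Neither endothelin receptor was called in the F test with all samples. Ednra (ENSMUSG00000031616, chromosome 8, 77663031 to 77724464) measured 17.1, 19.9 and 18.8 CPM in proestrus, 19.2, 23.4 and 17.4 CPM in estrus, 26.5, 32.8 and 13.1 CPM in metestrus and 31.9, 23.7 and 29.4 CPM in diestrus (edgeR F test, adjusted p = 0.287). Means ran from 18.6 ± 1.42 CPM in proestrus to 28.4 ± 4.20 CPM in diestrus (SD, n = 3 each), and diestrus did not overlap with proestrus or estrus. The widest contrast, proestrus against diestrus, gave -0.60 ± 0.27 on the log2 scale (SE; adjusted p = 0.211). Without metestrus replicate 7, its lowest sample, the F test called Ednra (adjusted p = 0.0425).

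Ednrb (ENSMUSG00000022122, chromosome 14, 103814625 to 103844402) measured 6.84, 7.55 and 8.12 CPM in proestrus, 11.1, 19.4 and 15.1 CPM in estrus, 9.86, 10.1 and 69.2 CPM in metestrus and 22.4, 16.3 and 13.6 CPM in diestrus. All proestrus samples lay below all others, and metestrus replicate 7 alone lay far above. That replicate was also the library with 862 CPM of summed gland markers, most of it from markers other than Foxa2 and Cxcl15. Its Ednrb value rested on 116 counts, and Ednrb made up 84.1% of the counts of both endothelin receptors there (Wilson 95% interval 77 to 89.2%), against 23.5% to 46.5% in the other 11 libraries. With all samples the F test did not call Ednrb (adjusted p = 0.142). It did so without a filter (0.0133) and without metestrus replicate 7 (0.025), where estrus lay above proestrus by a log2 fold change of 1.00 (adjusted p = 0.0314) and proestrus below diestrus by -1.22 (adjusted p = 0.0164). It also did so without metestrus replicate 5 (0.0299) or 6 (0.0415), samples at the low end of their stage, and metestrus against proestrus was then called too (adjusted p = 0.0275 and 0.0254, against 0.0951 with all samples). Without replicate 7 that difference was 0.41 on the log2 scale (adjusted p = 0.616), against 1.97 with all samples.

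Among the connexins, Gjb2 (ENSMUSG00000046352, chromosome 14, 57098600 to 57104702) had the widest range of stage means. It measured 84.4, 73.3 and 82.7 CPM in proestrus, 42.1, 41.8 and 76.5 CPM in estrus, 89.7, 36.0 and 12.5 CPM in metestrus replicates 5, 6 and 7, and 7.98, 4.45 and 10.2 CPM in diestrus. Diestrus lay below every other sample, while metestrus spread over nearly the whole range. Means were 80.1 ± 5.99, 53.4 ± 20, 46.1 ± 39.6 and 7.54 ± 2.89 CPM (SD, n = 3 each; edgeR F test, adjusted p = 0.00463). Proestrus lay above diestrus by a log2 fold change of 3.41 ± 0.56 (SE; edgeR, adjusted p = 0.00216, higher in 3 of 3) and diestrus below estrus by -2.84 ± 0.57 (adjusted p = 0.00318, lower in 3 of 3). Both calls held under every alternative tried. Diestrus against metestrus, -2.64 ± 0.58, was not called with all samples (adjusted p = 0.0848), and it was without metestrus replicate 6 (0.0477) or 7 (0.0077), without a filter (0.000103) and by DESeq2 (0.000267). Without metestrus replicate 5, the high sample, the difference shrank to -1.68 (adjusted p = 0.172). Metestrus against proestrus was called only without metestrus replicate 5 (-1.73 on the log2 scale, adjusted p = 0.0196, against -0.78 and 0.356 with all samples) among the fits that left out 1 library.

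The epithelial marker sum ran in the same order as Gjb2 over the stages, at means of 2658, 2475, 1441 and 1109 CPM from proestrus to diestrus. Within metestrus it was 1779, 1384 and 1160 CPM in replicates 5, 6 and 7, the same order as Gjb2 in those samples. From estrus to diestrus 9 of the 10 epithelial markers were called lower, against 13% of all genes. The median log2 fold change over the 10 was -1.34, against -2.84 for Gjb2 and 0.001 for all genes tested. The part of the epithelial cells in the Gjb2 difference was not tested.

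Gja1 (ENSMUSG00000050953, chromosome 10, 56377330 to 56402513) was lower in diestrus than in the other stages, whose means differed by less than the spread. It measured 55.9, 50.7 and 57.3 CPM in proestrus, 50.1, 62.9 and 46.7 CPM in estrus, 42.0, 65.6 and 71.0 CPM in metestrus and 33.9, 29.7 and 27.7 CPM in diestrus. All 3 diestrus samples lay below the other 9, and the other stages overlapped. Means were 54.6 ± 3.52, 53.2 ± 8.54, 59.5 ± 15.4 and 30.4 ± 3.16 CPM (SD, n = 3 each; edgeR F test, adjusted p = 0.0118). Proestrus lay above diestrus by a log2 fold change of 0.84 ± 0.20 (SE; edgeR, adjusted p = 0.0173) and diestrus below estrus by -0.80 ± 0.20 (adjusted p = 0.0105). Diestrus against metestrus gave -0.96 ± 0.20, which missed the threshold (adjusted p = 0.0699) and passed it without metestrus replicate 5 (0.0223), without a filter (0.00861) and by DESeq2 (0.0127). These calls lay near the threshold. The F test lost Gja1 without diestrus replicate 4 (adjusted p = 0.0524) or 5 (0.0589). The proestrus call was lost without proestrus replicate 1 (0.0538), proestrus replicate 3 (0.0628), diestrus replicate 4 (0.067) or diestrus replicate 5 (0.0704), and the estrus call without estrus replicate 4 (0.0659). With counts scaled from TPM all 3 were lost (adjusted p = 0.0521, 0.053 and 0.0553). Smooth muscle sums overlapped between proestrus and diestrus, as given above, and were higher in all 3 estrus samples than in diestrus.

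Gjc1 (ENSMUSG00000034520, chromosome 11, 102799579 to 102819700) ran the other way, with its low point in proestrus. It measured 20, 15.6 and 19.3 CPM in proestrus, 30.3, 57.8 and 37.6 CPM in estrus, 55.5, 39.8 and 41.1 CPM in metestrus and 37.9, 38.6 and 43.6 CPM in diestrus. Every proestrus sample lay below all 9 others, and the later stages overlapped. Means were 18.3 ± 2.33, 41.9 ± 14.2, 45.5 ± 8.72 and 40 ± 3.11 CPM (SD, n = 3 each; edgeR F test, adjusted p = 0.00547). Gjc1 rose from proestrus to estrus by a log2 fold change of 1.19 ± 0.24 (SE; edgeR, adjusted p = 0.00496, higher in 3 of 3). It was also higher in metestrus than in proestrus, by 1.32 ± 0.24 (adjusted p = 0.0116), and lower in proestrus than in diestrus, by -1.13 ± 0.24 (adjusted p = 0.00977). Leaving out proestrus replicate 2, its lowest sample, ended the last 2 calls (adjusted p = 0.064 and 0.0557). Pericyte marker sums were also lowest in proestrus, at 252 to 273 CPM against 343 to 474 CPM in the other stages. Of the pericyte markers 3 of 7 were called higher in estrus, against 9.67% of all genes. Their part in the Gjc1 difference was not tested.

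Gja4 (ENSMUSG00000050234, chromosome 4, 127311421 to 127314039) measured 10.8, 4.31 and 7.61 CPM in proestrus, 2.47, 8.58 and 8.24 CPM in estrus, 13.5, 16.4 and 19.7 CPM in metestrus and 9.97, 22.2 and 10.8 CPM in diestrus. Metestrus lay above proestrus and estrus with no overlap. It was not called in the F test (edgeR, adjusted p = 0.0822) nor in metestrus against estrus, where the log2 fold change was 1.32 ± 0.45 (SE; adjusted p = 0.0921), and 1.20 to 1.45 without single metestrus samples. The F test called it without a filter (adjusted p = 0.0234) and by DESeq2 (0.0489). With 4 to 45 counts per library, counting error alone gave a coefficient of variation of 18.8% to 28.5% at the stage means, against 18.7% to 53.4% observed.

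The makeup of the connexin counts changed over the cycle. Because a 3' tag is read about once per transcript whatever its length, shares of counts were taken without dividing by length, and only changes in 1 gene's share are described. Gjb2 held 49.3%, 50.9% and 49.5% of the counts of the 4 connexin members in the proestrus samples, 24.4% to 45.3% in estrus, 8.68% to 44.7% in metestrus and 4.69% to 11% in diestrus. Gjc1 went the opposite way, from 11.4% ± 0.435 in proestrus to 43.4% ± 3.45 in diestrus (SD, n = 3). The share of Gja1 was 34.1% ± 1.29 in proestrus and 33% ± 4.15 in diestrus, so that its lower level in diestrus did not show as a lower share. Each share rests on 163 to 387 connexin counts, and the widest Wilson 95% interval for Gjb2 in diestrus ran from 7.1% to 16.8% (replicate 5), which covers counting error only. No test was made on the shares.

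**Figure D3:**
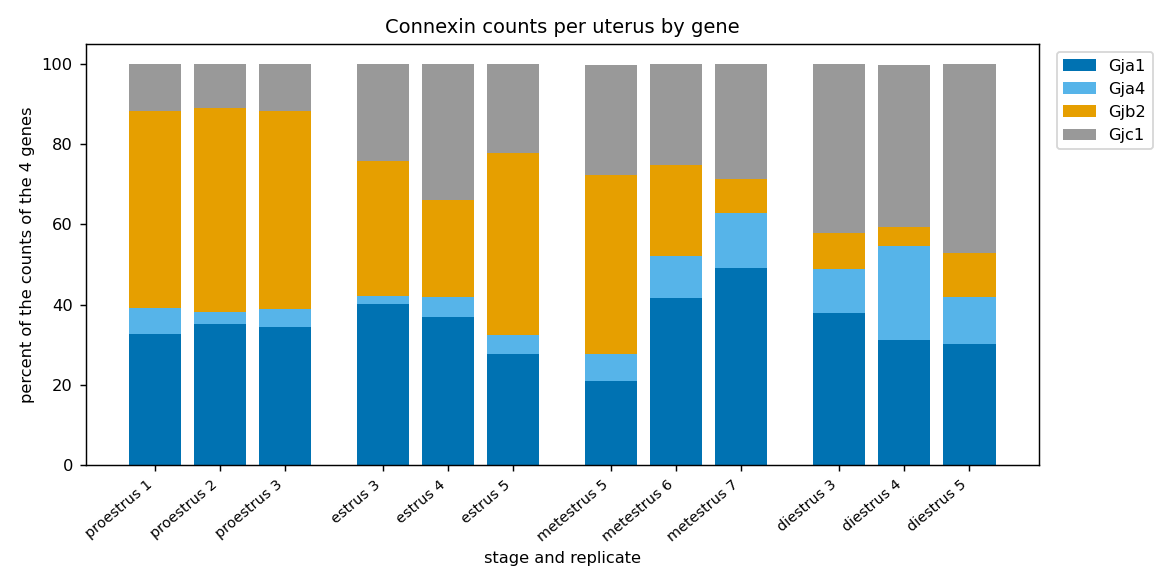
Share of the summed counts of Gja1, Gja4, Gjb2 and Gjc1 held by each gene, in percent, in each of the 12 samples (stacked bars). Gjb2 held 49.3% to 50.9% in proestrus and 4.69% to 11% in diestrus, and metestrus replicates 5, 6 and 7 stood at 44.7%, 22.8% and 8.68%.

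Set against the whole transcriptome, the members were called most often in diestrus against estrus, where all 5 calls were lower in diestrus (Oxtr, Gja1, Gjb2, Edn1 and Agtr1a), or 55.6% of 9, against 13% of all tested genes called lower and 9.74% higher. The median log2 fold change over the 9 members was -0.80 there, and 0.001 over all genes. CPM ranges of these 2 stages did not overlap for 7 of the 9, against 42.9% of all genes. Upper-quartile scaling turned the share of higher genes among all calls from 42.8% to 55.1% in this contrast, and from 56.4% to 44.3% between estrus and proestrus and from 37.5% to 55% between metestrus and estrus, with the members' counts unchanged. From proestrus to estrus 3 members rose (Gjc1, Edn1 and Agtr1a) and 1 fell (Oxtr), against 9.67% and 7.46% of all genes, and 5 of 9 did not overlap between these stages against 39% of all genes. From diestrus to proestrus 3 rose (Oxtr, Gja1 and Gjb2) and 1 fell (Gjc1), against 4.61% and 3.91% of all genes, or 8.52% in either direction. Between metestrus and proestrus 1 rose (Gjc1) and 1 fell (Oxtr), against 2.5% and 1.82%. The single call from estrus to metestrus (Edn1, 11.1% of 9, lower) is near the 7.57% of all genes called. Of all tested genes, 4.73% were called lower there and 2.84% higher. Diestrus against metestrus called 0 of 9 (edgeR, adjusted p under 0.05) against 0.224% of all genes (0.133% higher and 0.0913% lower, so that 59.3% of the 27 calls were higher, against 81.2% when scaled by library totals, 31.1% of 148 calls by DESeq2 and 33.2% of 256 without a filter), with 4 members at an unadjusted p under 0.05 and 2 called by DESeq2 (Gja1 and Gjb2). These contrasts share stages and are not independent of each other. The members were chosen with earlier results of these data known, so their shares beside those of all genes are descriptive only.

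**Figure D4:**
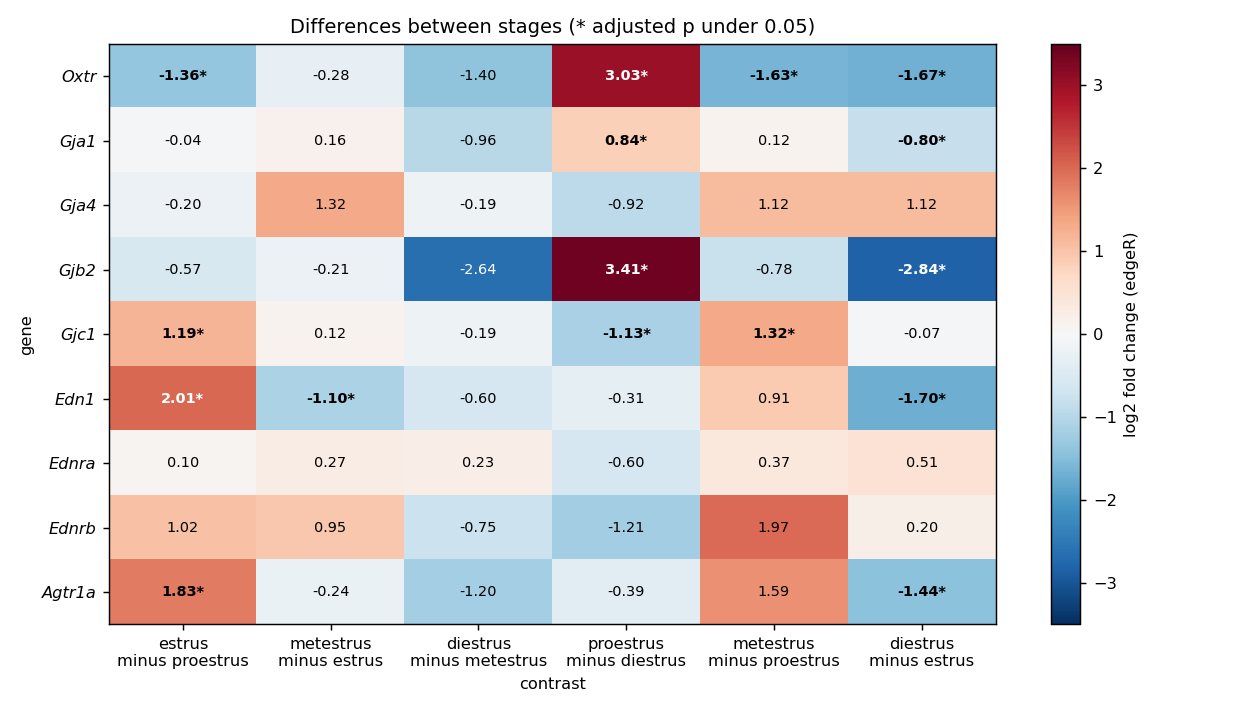
Log2 fold changes of the 9 members (rows) in the 6 contrasts between stages (columns), from the edgeR fit to all 12 samples, with asterisks for an adjusted p under 0.05. Oxtr and Gjb2 have the largest values, 3.03 and 3.41 for proestrus minus diestrus, and all 5 calls for diestrus minus estrus are negative.

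Over the 12 samples, the members whose log2 CPM patterns were most alike were Oxtr and Gjb2 (Pearson r 0.80), Oxtr and Gja1 (0.72) and Edn1 and Agtr1a (0.71), and the least alike were Oxtr and Gjc1 (-0.64). These values are descriptive, since the samples fall into 4 stages and share their library scaling. Among all tested genes, those most like Oxtr were Inhbb (0.96), a subunit of activin and inhibin, Ppfibp1 (0.94) and Rara (0.93), a retinoic acid receptor. Inhbb had stage means of 248, 71.9, 61.9 and 10.2 CPM from proestrus to diestrus. The genes most like Edn1 were Tpp1 (0.96), a lysosomal peptidase, Ms4a4d (0.95) and Ly6a (0.95), and those most like Agtr1a were Ankrd11 (0.94), Pld3 (0.92) and Crebrf (0.92). For Gjb2 they were Cdc42 (0.95), a small GTPase of cell polarity, Atp2c1 (0.95) and Armc10 (0.94). For Gjc1 they were Susd6 (0.95), Tnfsf12 (0.94) and Ttc28 (0.93), and for Gja1 Gm10800 (0.90), Gm5575 (0.88) and Klhl6 (0.87). Gm10800, Gm5575 and Klhl6 were low, with diestrus means of 0.663, 1.84 and 2.93 CPM. Cdc42, Tnfsf12, Gm5575, Ankrd11 and Klhl6 were not called in the edgeR F test (adjusted p = 0.128 to 0.258).

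The genes around the members were read from lists of their systems. Of 19 other connexins and pannexins only 4 passed the filter. Among 9 binding partners and regulators of Gja1, all tested, the F test called 2 (22.2%, near the 23.2% of all genes). They included Tjp1, which encodes a scaffold of cell junctions. Tjp1 measured 42.9 ± 2.84 CPM in proestrus and 66.5 ± 11.8 CPM in estrus, a rise (SD, n = 3 each; edgeR, adjusted p = 0.0192), and it was lower in diestrus than in estrus (adjusted p = 0.0305). Of 8 oxytocin and vasopressin genes 3 were tested and 0 were called.

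Of 7 other endothelin genes 4 were tested and Mme was called in the F test (25%, near the 23.2% of all genes). Mme encodes neprilysin, a membrane peptidase that cleaves endothelin and other peptides. Its means were 15.2 ± 3.04 CPM in proestrus, 35.9 ± 7.83 in estrus, 49.1 ± 14.3 in metestrus and 135 ± 17.8 CPM in diestrus (SD, n = 3 each; edgeR F test, adjusted p = 1.33e-05), and every contrast but that of metestrus and estrus was called. Its log2 fold change from metestrus to diestrus was 1.45 ± 0.22 (SE; adjusted p = 0.0163), where no member was called. Of 11 angiotensin genes 6 were tested, and the peptidases Enpep and Anpep were called in the F test (33.3%, against 23.2% of all genes). Enpep, which trims angiotensin II, went from 10.5 ± 1.43 CPM in proestrus up to 24.3 ± 3.39 CPM in estrus (adjusted p = 0.00639), as Agtr1a rose. Anpep fell from 186 ± 26.8 CPM in proestrus to 102 ± 30 CPM in metestrus (adjusted p = 0.0346).

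Of 22 other receptors of contraction or relaxation 9 were tested and 6 were called in the F test, where 23.2% of all genes were. Hrh1, the Gq-coupled histamine receptor, had a profile with its high point in proestrus, at 12.7 ± 3.43 CPM against 1.82 ± 0.900 CPM in estrus and 0.166 ± 0.288 CPM in diestrus, under the detection floor (edgeR F test, adjusted p = 0.00204). Bdkrb2, a bradykinin receptor, stood at 7.1 ± 2.84 CPM in proestrus, 3.74 ± 0.563 in estrus and 17.5 ± 5.02 CPM in diestrus, above both (adjusted p = 0.0265 and 0.00101). F2r, the thrombin receptor, stood at 4.48 ± 1.72, 13.6 ± 3.04 and 23.4 ± 3.88 CPM in the same stages and was lower in proestrus than in estrus (adjusted p = 0.0276) and diestrus (0.00394). Rxfp1, the receptor of relaxin, was highest in metestrus at 205 ± 32.5 CPM and rose there from estrus by 0.95 ± 0.18 on the log2 scale (SE; adjusted p = 0.00777).

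Downstream of the receptors, 7 of 29 tested genes of Gq and calcium signalling were called (24.1%, near the 23.2% of all genes). Itpr3, a calcium release channel, followed the estrus peak, at 30.9 ± 5.40 CPM in estrus and 6.19 ± 0.697 CPM in diestrus, which differed by -2.31 ± 0.28 on the log2 scale (SE; adjusted p = 0.000114). Rgs3, which damps G protein signals, fell from 137 ± 18.6 CPM in proestrus to 49.1 ± 2.43 CPM in diestrus, while Rgs5, a pericyte gene, rose from 149 ± 17.1 to 275 ± 29.3 CPM and Plcb4, a phospholipase C, from 20 ± 4.17 to 39.7 ± 5.40 CPM (adjusted p = 0.000498, 0.00447 and 0.00426 between these stages). Of 20 tested ion channel and pump genes of the myometrium (of 25 listed) 6 were called (30%, not far from the 23.2% of all genes). Ano1, a calcium-activated chloride channel, had 74.1 ± 16 CPM in proestrus and 310 ± 31.4 CPM in diestrus, a rise (adjusted p = 9.19e-05), opposite to Oxtr. Kcnmb1, a subunit of the calcium-activated potassium channel, was highest in estrus, at 98.8 ± 15.7 CPM against 34.2 ± 16.7 CPM in diestrus (adjusted p = 0.00462). Of the 14 contractile genes 6 were called (42.9%). From proestrus to estrus 4 rose, where 9.67% of all genes did, among them Myh11 from 752 ± 204 to 2013 ± 147 CPM (adjusted p = 0.002) and Tagln from 1008 ± 239 to 1977 ± 261 CPM (adjusted p = 0.00282).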

How the data were processed

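RNA of 12 samples of whole uterus (100 ng each) was profiled by 3' TagSeq, which reads near the 3' end of polyadenylated transcripts, per the labels' protocols. The authors deposited 1 table per sample with estimated counts and TPM for 119414 transcripts, per the file headers. The submitters' processing notes list FastQC, kallisto and DESeq2; the transcript set, the build and the use of strand are not given in the sources used here. No molecular identifiers are described, so intervals and floors cover counting error only.

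Transcripts were matched without version to GENCODE M21 (GRCm38), which need not be the authors' annotation. Of them 97.7% matched, and the rest held 0.619% to 0.774% of counts and were left out. Counts were summed per gene, rounded, filtered with filterByExpr and scaled by TMM factors (0.907 to 1.05). edgeR 4.0.16 in R 4.3.3 (quasi-likelihood, 1 coefficient per stage, all 12 samples) gave an F test and 6 two-sided contrasts, adjusted by Benjamini-Hochberg over 12052 genes, with 0.05 as the threshold. Log2 CPM used a prior count of 2. limma 3.58.1 (voom) and DESeq2 1.42.0 served as alternatives, beside other scalings, filters, counts scaled from TPM, a replicate block and leaving out each sample. The pipeline was tested on simulated data. The labels' replicate numbers are shared by some stages, but nothing says that they mark a shared animal, litter or day. Replicates 1 and 2 occur only in proestrus, and 6 and 7 only in metestrus. The replicate block therefore left proestrus resting on replicate 3 and metestrus on replicate 5.

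Named genes were all 9 members, up to 4 genes per list called in the F test with the smallest p, and the 3 genes most like each member called in the F test. Some results that the rule covers are not reported here. Edn1 and Ednra overlap annotated antisense genes that are not among the transcripts counted here. The members and lists were chosen with earlier results of these data known.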

Additional observations from a re-analysis of the deposited data

How the results depend on the processing

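No log2 fold change of a member that was called here, or under any alternative, changed sign in any of them. Contrasts called under none of them did change sign in places, among them Ednrb between metestrus and both neighbouring stages without metestrus replicate 7. The 6 members called in the F test became 5 to 8 over all alternatives. From proestrus to estrus and from diestrus to proestrus the 4 calls in each became 2 with the replicate block, and 3 to 5 when single samples were left out. From estrus to metestrus the 1 call became 2 without a filter and 0 with counts scaled from TPM, with the replicate block and in the fit to only the 2 stages, and 0 to 1 when samples were left out. Diestrus against metestrus went from 0 calls to 3 without a filter, 2 with DESeq2, 1 with the replicate block and 0 to 1 when samples were left out. Metestrus against proestrus went from 2 calls to 5 without a filter, 4 with DESeq2, 1 with counts scaled from TPM, 0 with the replicate block, 1 in the fit to the 2 stages and 1 to 5 when samples were left out. The 5 calls of diestrus against estrus became 4 to 6. The minimum mean of 50 counts left 5 members to test, and counts scaled from TPM left 8, without Ednrb. Over all genes, the F test's 2794 calls became 1674 with counts scaled from TPM and 1844 at the minimum mean of 50 counts, and the 2745 of diestrus against estrus 1801 and 1811. Counts scaled from TPM also took estrus against proestrus from 2064 to 1269, metestrus against estrus from 912 to 410, metestrus against proestrus from 520 to 157 and proestrus against diestrus from 1027 to 539 (670 at the minimum mean of 50). Fits to only the 2 stages gave 301 for metestrus against estrus and 42 for metestrus against proestrus, which had 936 without a filter. The 27 calls of diestrus against metestrus became 0 to 256. The number of genes tested differed too, at 5481 with the minimum mean of 50 counts, 9683 with counts scaled from TPM and 20720 without a filter. At the minimum mean of 50 counts the share called was higher, 33.6% against 23.2% in the F test and 33% against 22.8% for diestrus against estrus. With counts scaled from TPM it was lower, at 17.3% and 18.6%. Why the calls changed was not tested.

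Whether the replicate numbers paired the samples could not be decided, since only same-numbered pairs were compared. Correlations of the deviations from stage means lay between -0.0433 and 0.0738 for 6 of the 7 same-numbered pairs and were 0.163 for the pair of diestrus and metestrus replicate 5. In the block fit, proestrus rested on replicate 3 and metestrus on replicate 5, since their other numbers occurred in no other stage. Its calls are therefore not those of a fit with 3 samples in each stage. With the replicate block the F test called 2156 genes against 2794, and estrus against proestrus 711 against 2064, metestrus against estrus 132, metestrus against proestrus 89, diestrus against metestrus 189 and proestrus against diestrus 357. Of the members, Gjc1 left the F test with it (adjusted p = 0.253), and among the contrasts the lost calls were those of Gjc1 and Agtr1a in estrus, Gja1 and Gjc1 in diestrus and Oxtr and Gjc1 in metestrus, each against proestrus, and Edn1 between metestrus and estrus. It moved log2 fold changes of estrus against proestrus, that of Edn1 from 2.01 to 1.19 and that of Agtr1a from 1.83 to 2.58. It also called Gjb2 in diestrus against metestrus. There metestrus rested on replicate 5, the sample with the highest Gjb2 of its stage (89.7 CPM). For low members such as Agtr1a and Gja4, with 7 and 4 counts in single libraries, depth limits what could be detected.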
